A study of Mus musculus with 18 samples.

Results

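Libraries labelled as spleen of mice modulated through CTLA4 were compared with those of untreated mice after they had been matched for their T cell transcripts. This took 9 of the 18 libraries of the study, the 6 of the group LMS and the 3 of the untreated group N. They were selected into strata by their own level of Cd3e, which encodes a chain of the T cell receptor complex, with a limit of 40 FPKM (fragments mapped to a transcript, scaled by its length and by the size of the library). LMS 2, LMS 5, N 1 and N 2 lay over the limit, and LMS 1, LMS 3, LMS 4, LMS 6 and N 3 lay under it. Genes were then chosen by the difference between LMS and N having the same sign in both strata. The direction of these genes is therefore what selected them, and their values are given as a description.

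LPPC is a complex of lipid, polyethylene glycol and polyethylenimine that adsorbs proteins to its surface, and MP stands for membrane proteins taken from dendritic cells after antigen uptake. LMS mice were immunized and boosted with LPPC/MP and then given LPPC/MP with an antibody to CTLA4, which the labels name CD152, in 1 or 2 modulations that the labels do not tell apart. N mice are labelled Naive and received no complex. The other libraries belong to LM (LPPC/MP alone, 3 libraries) and LMA (LPPC/MP and then LPPC/MP with an antibody to CD28, 6 libraries), and serve here only as levels beside the comparison. All mice are labelled as female C57BL/6J of 4 to 6 weeks, and the tissue as spleen. LMS thus differs from N in immunization, boost and complex as well as in the antibody. Whether each library stands for an animal of its own is not stated in the sources used here, and a p-value then covers only the spread from library to library, which may be technical.

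CTLA4 and CD28 are receptors of T cells that bind the same ligands, CD80 and CD86, on antigen-presenting cells. CD28 signals for activation and CTLA4 restrains it. The spleen holds B cells and T cells in its white pulp and macrophages, red blood cells and, in the mouse, precursors of red cells and granulocytes in its red pulp. Neutrophil precursors fill their granules in waves, first with proteases and myeloperoxidase and later with lactoferrin, lipocalin and cathelicidin, and they make these transcripts mainly before the cells mature.

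Several libraries went against their labels. Eif2s3y, a gene of the Y chromosome, was listed at 0 in the 4 libraries over the Cd3e limit and stood between 36.5 and 43.0 FPKM in the 5 libraries under it, though every mouse is labelled female. Xist, the RNA of the inactive X chromosome, stood between 48.1 and 59.9 FPKM over the limit and between 0.286 and 2.69 FPKM under it. The strata of Cd3e and of the Y-linked transcripts thus hold the same libraries and cannot be told apart. The protocol fields of the labels describe melanoma tumours and not spleen cells.

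Defining markers of the labelled tissue were weak under the limit. Cd3e was at 0.843 FPKM in N 3 and at 2.76, 4.02, 4.51 and 5.58 FPKM in LMS 1, 3, 4 and 6. Over the limit it was at 68.8 FPKM in N 1, 59.1 in N 2, 55.5 in LMS 2 and 55.8 in LMS 5. Lyz2, the lysozyme of macrophages and monocytes, ran the other way, with 267 to 307 FPKM over the limit and 2589 to 2888 FPKM under it.

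**Figure D1:**
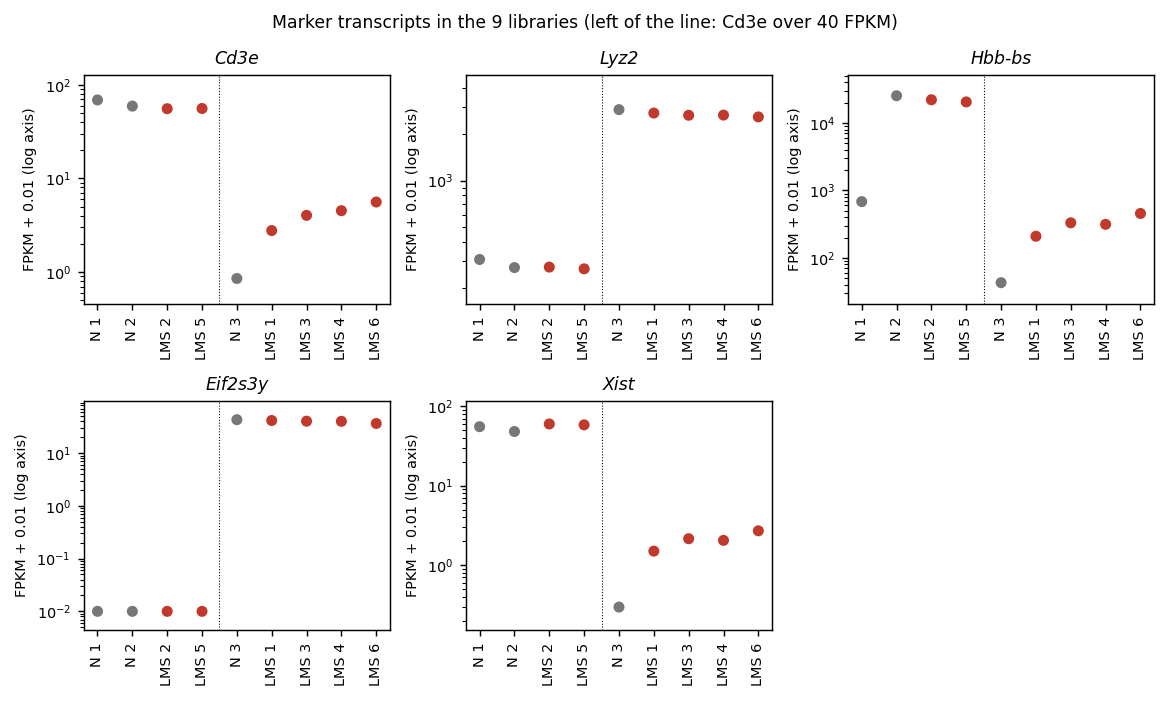
Level of 5 marker transcripts (FPKM + 0.01, log axis) in each of the 9 libraries, with N in grey and LMS in red and the libraries with Cd3e over 40 FPKM left of the dotted line. Points at 0.01 stand for genes listed at 0; Cd3e is lowest in N 3, Hbb-bs is low in N 1 among the libraries over the limit, and Eif2s3y separates the strata.

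The match within each stratum was incomplete. Over the limit, N 2, LMS 2 and LMS 5 resembled each other (Pearson's r of 0.993 to 0.994 across the 11436 genes, on the scale of log2 of FPKM + 0.5), and N 1 was further from each of them (0.908 to 0.909). These correlations run across genes, which are no independent replicates. The summed FPKM of the 15 erythroid markers was 2542 in N 1 against 84850 in N 2, 73170 in LMS 2 and 75680 in LMS 5. Hemoglobin transcripts made up 0.671% of all FPKM in N 1 and 16.9% to 18.4% in the other 3 libraries.

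Under the limit N 3 stood apart from the LMS libraries in lymphocyte transcripts. The 22 T cell markers summed to 16.6 FPKM in N 3 and to 81.7, 118, 128 and 178 FPKM in LMS 1, 3, 4 and 6, and the 17 B cell markers to 246 FPKM against 523, 719, 766 and 958. None of these markers was listed at 0 in any library. In N 3, 6 of the 12 basophil and mast cell markers were listed at 0, but most were low in this stratum. In N 3 and in LMS 1, 3 and 6, 11 of the 12 were under 0.5 FPKM, and in LMS 4 it was 9. Their sum was 12.1 FPKM in N 3 and 13.3, 12, 13.9 and 14.25 FPKM in LMS 1, 3, 4 and 6. These are bulk libraries, in which fewer cells of a type and less RNA per cell cannot be told apart.

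The contrast over the whole table gave no calls. The test covered the 11436 protein-coding genes whose mean over the 18 libraries reached 0.5 FPKM. In limma with the stratum as a term, 0 genes (0% of those tested) differed between LMS and N at an adjusted p under 0.05, with the smallest adjusted p at 0.687 and 710 genes at an unadjusted p under 0.05. Without the stratum it also called 0, with 38 at an unadjusted p under 0.05. The 30 arrangements of the labels within the strata allow no exact permutation p below 0.0667, so none was computed for single genes.

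The difference had the same sign in both strata for 5334 genes and opposite signs for 6082. Higher in LMS in both were 1747 genes (15.3% of those tested) and lower in both 3587 (31.4%). In 231 genes (2.02%) every LMS library lay above every N library of its stratum, and in 912 (7.97%) every one lay below. Taken alone, the stratum under the limit held 3155 genes higher (27.6%) and 3595 lower (31.4%) without overlap, where N 3 is the only untreated library. The stratum over the limit held 1038 higher (9.08%) and 3361 lower (29.4%). Nothing is read from these shares, since the selection used the same values.

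The largest differences were among the higher genes. At least 1 on the log2 scale in both strata was reached by 27 genes higher in LMS (0.236%) and by 0 genes lower (0%). Of the 231 higher genes without overlap, 23 differed by at least 0.5 in both strata, against 2 of the 912 lower genes. The median gene of all tested stood at -0.06 over the limit and at -0.01 under it.

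Scaling by the median of ratios over the tested genes moved these counts. It left 379 genes higher without overlap (3.31%) and 499 lower (4.36%), of which 229 of the 231 and 490 of the 912 are the same genes. The share of higher genes among those without overlap was 20.2% on FPKM as deposited and 43.2% after this scaling.

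Single libraries decided many of the higher genes. In all 27 genes past 1 in both strata N 1 was lower than N 2, in 26 the mean of LMS 2 and 5 was less than 0.5 above N 2, and in 19 N 2 reached at least the lower of LMS 2 and LMS 5. Without N 1 none of the 27 reached 1 in both strata. Without N 1 the count without overlap was 643 higher (5.62%) and 1804 lower (15.8%), where all 231 and all 912 genes are kept by construction. The same holds for the counts without overlap of each list below, which cannot fall when a library is left out.

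**Figure D2:**
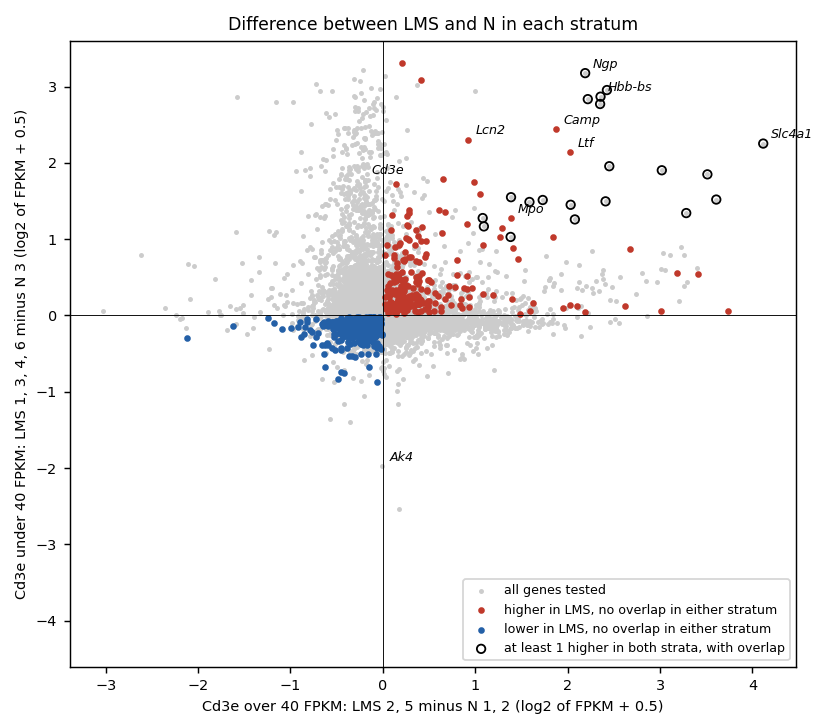
Difference between LMS and N (log2 of FPKM + 0.5) for each gene tested, with the stratum over 40 FPKM of Cd3e on the x axis and the stratum under it on the y axis. Red and blue points are the 231 higher and 912 lower genes without overlap in either stratum, and rings are genes at least 1 higher in both with overlap; neutrophil granule and erythroid genes lie far to the upper right, Cd3e upper left.

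Among the higher genes without overlap, Ltf, Camp and Mpo of neutrophil granules ranked first by the smaller of the stratum differences. Erythroid genes with overlap, such as Hbb-bt at 2.43 and Hbb-bs at 2.36, ranked above all of them. Lactoferrin, an iron-binding protein of the later granules encoded by Ltf on chromosome 9 from 111019271 to 111042767 of mm10, was at 0.678 FPKM in N 1, 18.8 in N 2, 18.8 in LMS 2 and 19.0 in LMS 5. It was at 0.483 FPKM in N 3 and at 2.38, 3.82, 4.22 and 5.41 in LMS 1, 3, 4 and 6. Every LMS library lay above the untreated library of its stratum, but over the limit by a margin that is small beside the gap between N 1 and N 2. The difference was 2.03 on the log2 scale over the limit and 2.14 under it, and the stratified estimate was 2.08 (SE 0.78, adjusted p = 0.687 in limma). Against N 2 alone the difference over the limit was 0.01.

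Camp encodes the antimicrobial peptide cathelicidin. It was at 0.813 FPKM in N 1, 16.4 in N 2 against 16.98 in LMS 2 and 16.6 in LMS 5, and at 0.903 FPKM in N 3 against 4.96, 7.38, 7.28 and 9.46 in LMS 1, 3, 4 and 6. Its differences of 1.87 and 2.44 again met a difference of 0.03 against N 2 alone.

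Mpo, the myeloperoxidase of the first granules, was at 0.405 FPKM in N 1, 4.84 in N 2, 5.27 in LMS 2 and 5.20 in LMS 5. Under the limit it was at 0.164 FPKM in N 3 and at 0.517, 0.913, 1.31 and 2.05 FPKM in LMS 1, 3, 4 and 6. The groups did not overlap in either stratum, with differences of 1.38 and 1.27, and against N 2 alone the difference over the limit was 0.10.

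Lcn2, an iron-scavenging lipocalin of granules, was at 6.48 FPKM in N 1, 20.5 in N 2, 21.2 in LMS 2 and 23.8 in LMS 5. It was at 0.562 FPKM in N 3 and at 4.30, 3.95, 4.53 and 6.56 FPKM in LMS 1, 3, 4 and 6. Both LMS libraries over the limit lay above N 2, by a mean of 0.13 on the log2 scale, and the differences with both N libraries were 0.93 and 2.31.

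Olfm4, a glycoprotein of the later granules, showed differences of 1.41 and 0.89 without overlap, and 0.13 against N 2 alone. Ngp, a granule protein of precursors, was at 2.88 FPKM in N 1 and at 78.3 in N 2, above LMS 2 at 73.7 and LMS 5 at 74.1. It was at 1.62 FPKM in N 3 against 11.7, 18.2, 21.3 and 26.4 in LMS 1, 3, 4 and 6, so the groups overlapped over the limit and not under it. The elastase gene Elane and the proteinase gene Prtn3 overlapped over the limit too, with differences of 0.93 and 0.95 and of 0.98 and 1.08.

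Of the 14 tested granule genes of precursors, 13 were higher in LMS in both strata and 5 without overlap, beside 15.3% and 2.02% of all genes, and 4 were past 1 in both strata. The one lower in both, Cybb, belongs to the oxidase of all phagocytes. The median of the list was 0.93 over the limit and 0.92 under it, against -0.06 and -0.01 for all genes, and over the limit it was -0.04 without N 1. Without N 1, 6 of the 14 were higher in both strata, beside 1766 of all 11436 genes. The 5 without overlap are Ltf, Camp, Mpo, Lcn2 and Olfm4, beside 5.62% of all genes without N 1. These 5 are kept by construction when a library is left out.

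Ltf and Lcn2 were lower in every LMS and N library than in every LM and LMA library. Ltf had a median of 57.5 FPKM in LM (57.2 to 68.9) and 99.7 FPKM in LMA (81.7 to 114). Lcn2 had a median of 94.0 FPKM in LM and 138 FPKM in LMA. Every LM and LMA library had Cd3e under the limit (6.93 to 15.6 FPKM) and Eif2s3y at 31.0 to 36.75 FPKM, unlike LMS 2, LMS 5, N 1 and N 2. Their Lyz2, at 1386 to 1491 FPKM, lay between the levels of the strata. LM and LMA were not part of the strata and were not tested here, and their levels do not compare treatments alone.

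The genes of mature neutrophils moved less evenly. Of 19 tested, 7 were higher in both strata, beside 15.3% of all genes. Another 10 were lower over the limit and higher under it, beside 3561 of all 11436 genes. S100a9, a subunit of calprotectin, was at 128 FPKM in N 1, 246 in N 2 against 231 in LMS 2 and 228 in LMS 5, and at 15.6 FPKM in N 3 against 87.9, 129, 139.7 and 184 in LMS 1, 3, 4 and 6. The receptor gene Fpr2, which senses bacterial and host peptides, did not overlap and differed by 0.67 and 1.36, and by 0.32 against N 2 alone.

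**Figure D3:**
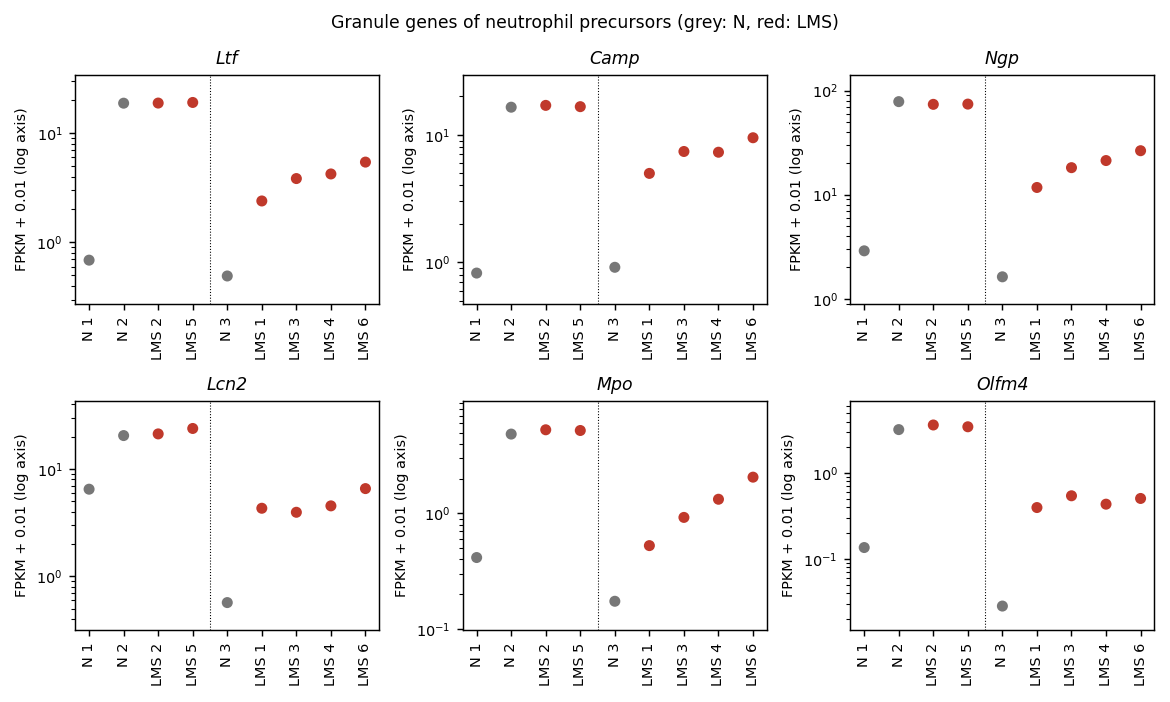
FPKM + 0.01 (log axis) of 6 granule genes in each library, with N in grey and LMS in red and the libraries with Cd3e over 40 FPKM left of the dotted line. In each panel N 1 lies below N 2, LMS 2 and LMS 5, and N 3 lies below LMS 1, 3, 4 and 6, but for Lcn2 N 1 lies above LMS 1, 3 and 4.

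The promoters of 4 granule genes are shown because these genes were higher together in both strata. Each is the stretch of 250 bases before the start site from RefSeq on GRCm38.p6, printed 5′ to 3′ on the strand of the gene. Capitals mark the letters TTNNGNAA, a core that C/EBP factors bind, and GAGGAA, a core that PU.1 binds, on either strand. Ltf is chr9:111019042-111019291 on the plus strand, Ngp chr9:110419558-110419807 on the plus strand, Lcn2 chr2:32387740-32387989 on the minus strand and Mpo chr11:87793534-87793783 on the plus strand.
Ltf: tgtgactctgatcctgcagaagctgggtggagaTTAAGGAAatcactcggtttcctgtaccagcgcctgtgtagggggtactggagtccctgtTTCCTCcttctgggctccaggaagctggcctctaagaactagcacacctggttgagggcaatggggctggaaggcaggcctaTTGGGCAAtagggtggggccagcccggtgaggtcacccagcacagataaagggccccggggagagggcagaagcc
Ngp: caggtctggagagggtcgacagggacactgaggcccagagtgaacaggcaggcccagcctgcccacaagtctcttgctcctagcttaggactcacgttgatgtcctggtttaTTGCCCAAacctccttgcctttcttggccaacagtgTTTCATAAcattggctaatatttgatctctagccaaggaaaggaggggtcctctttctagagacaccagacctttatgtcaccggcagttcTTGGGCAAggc
Lcn2: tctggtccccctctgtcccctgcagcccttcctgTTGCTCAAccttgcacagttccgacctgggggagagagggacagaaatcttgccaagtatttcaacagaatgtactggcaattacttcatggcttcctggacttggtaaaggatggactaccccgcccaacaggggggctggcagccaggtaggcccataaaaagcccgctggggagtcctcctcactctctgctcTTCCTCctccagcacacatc
Mpo: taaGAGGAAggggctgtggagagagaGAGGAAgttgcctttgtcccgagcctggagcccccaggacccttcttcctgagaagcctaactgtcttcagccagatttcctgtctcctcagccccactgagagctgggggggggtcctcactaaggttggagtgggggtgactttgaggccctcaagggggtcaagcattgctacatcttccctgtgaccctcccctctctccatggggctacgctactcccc

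In these windows Ltf held 2 matches of TTNNGNAA and 1 of GAGGAA, Ngp held 3 and 0, Lcn2 held 1 and 1, and Mpo held 0 and 2, and no match overlapped another. Camp held none of either. Of the 16 listed granule genes 14 had a window, of which 7 held TTNNGNAA (50.0%) and 8 held GAGGAA (57.1%). Of all 32851 windows of this length, 36.8% and 23.3% held them. A match gives letters in this stretch and no site of binding.

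Erythroid genes made up 8 of the 27 genes past 1 in both strata, and none of the 15 tested was without overlap. Hbb-bs, a beta chain of adult hemoglobin, was at 683 FPKM in N 1 and at 25390 in N 2, above LMS 2 at 22130 and LMS 5 at 20560. Under the limit it was at 42.9 FPKM in N 3 and at 209, 331, 314 and 456 in LMS 1, 3, 4 and 6. Its differences were 2.36 and 2.87, and -0.25 over the limit against N 2 alone.

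Slc4a1, the anion exchanger of the red cell membrane, was at 1.19 FPKM in N 1, 572 in N 2, 534 in LMS 2 and 545 in LMS 5. Alas2, the first enzyme of heme synthesis in red cells, had differences of 2.41 and 1.495. Over the limit N 1 was thus the low library of these genes and N 2 the high one. Of the 15, 13 were higher in both strata, beside 15.3% of all genes, and Car2 and Tfrc were higher over the limit only. Tfrc, the transferrin receptor, was at 12.3 FPKM in N 1 and 94.4 to 97.7 FPKM in N 2, LMS 2 and LMS 5, while under the limit it was at 42.8 FPKM in N 3 and 39.8 to 43.4 FPKM in LMS. Without N 1, 0 of the 15 were higher in both strata, beside 1766 of all 11436 genes.

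Other higher genes without overlap included linker and core histones. Hist1h1d was at 0.423 FPKM in N 1, 1.60 in N 2 against 2.10 in LMS 2 and 2.71 in LMS 5, and at 0.224 FPKM in N 3 against 1.22, 1.75, 1.29 and 2.77 in LMS 1, 3, 4 and 6. Both LMS libraries over the limit lay above both N libraries, and its differences were 1.05 and 1.59. Hist1h1e differed by 1.08 and 0.92, and the H2A gene Hist2h2ac by 0.92 and 1.20. Against N 2 alone the difference over the limit was 0.46 for Hist1h1d, 0.37 for Hist1h1e and 0.37 for Hist2h2ac. Transcripts of such histones largely lack a poly(A) tail, and how the libraries selected RNA is not given in the sources used here.

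The remaining leaders were Gbp2b, Dnah8, Scg5 and Wfdc21. Gbp2b encodes a GTPase induced by interferon gamma and was at 0.180 FPKM in N 1, 8.01 in N 2, 8.11 in LMS 2 and 8.11 in LMS 5. It was at 0.110 FPKM in N 3 and at 0.566, 0.732, 0.743 and 0.989 FPKM in LMS 1, 3, 4 and 6. As for Ltf and Mpo, N 1 and N 3 were low and N 2 stood beside LMS 2 and 5. The dynein gene Dnah8 differed by 1.26 and 1.02 and the secretory chaperone gene Scg5 by 1.29 and 1.15. Over the limit these were 0.14 and 0.08 against N 2 alone for Dnah8 and Scg5, and 0.02 for Gbp2b. Ranked by the smaller of the stratum differences, Olfm4 at 0.89 was the last of the 12 named, and Celf2 at 0.87 the first below. Celf2, an RNA-binding regulator of splicing, did not lean on N 1, with 9.35 FPKM in N 1, 1.91 in N 2, 26.8 in LMS 2 and 34.7 in LMS 5. It was at 4.84 FPKM in N 3 and at 13.4, 13.5, 5.45 and 7.46 FPKM in LMS 1, 3, 4 and 6.

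Among the other lists, single members were higher without overlap. Gadd45a, a stress gene among the targets of p53, was at 12.1 FPKM in N 1, 27.1 in N 2 against 29.4 in LMS 2 and 28.0 in LMS 5, and at 1.06 FPKM in N 3 against 2.16, 2.39, 3.12 and 3.73 in LMS 1, 3, 4 and 6. The chemokine receptor gene Ccr1 of myeloid cells differed by 0.28 and 1.35. Set against N 2 alone, the difference over the limit was 0.08 for Gadd45a and 0.08 for Ccr1.

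The order of the LMS libraries under the limit was the same in many of these genes. Cd3e was lowest in LMS 1 and higher in turn in LMS 3, LMS 4 and LMS 6, and the FPKM of 15 of the 27 genes past 1 in both strata (55.6%) had exactly this order, Ltf and Mpo among them. It was the order of 44 of the 231 higher genes without overlap (19.0%) and of 1138 of all 11436 genes (9.95%). N 2 exceeded N 3 in 26 of the 27, in 189 of the 231 (81.8%) and in 5591 of all genes (48.9%). The level of N 3 helped to select the 27 and the 231, so these shares are partly set by the selection. T cell, B cell, NK and erythroid markers were lowest in N 3 in this stratum as well, and their part in the higher genes was not tested.

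Lower genes were more numerous and their differences small. The median of the smaller stratum difference was -0.09 over the 912 genes without overlap, and the 12 lowest reached -0.39 to -0.62. Their leader was Csnk2a1, the catalytic alpha subunit of the kinase CK2, which lies on chromosome 2 from 152226839 to 152281852 of mm10. It was at 27.9 FPKM in N 1, 30.04 in N 2, 19.6 in LMS 2 and 17.8 in LMS 5. Under the limit it was at 36.0 FPKM in N 3 and at 22.1, 27.4, 22.1 and 18.7 FPKM in LMS 1, 3, 4 and 6.

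Each of the 3 N libraries was above each of the 6 LMS libraries for Csnk2a1, whatever the stratum. The differences were -0.62 and -0.67, the stratified estimate -0.64 (SE 0.11), and its adjusted p in limma 0.687 over all genes. Against N 2 alone the difference over the limit was -0.67. LM ranged from 18.2 to 35.0 FPKM and LMA from 23.7 to 32.9 FPKM, so that LM spanned most of the range of both groups.

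Other lower genes leaned on N 1 over the limit. Ptpro, a receptor tyrosine phosphatase, was at 3.39 FPKM in N 1, 1.77 in N 2 against 1.76 in LMS 2 and 1.11 in LMS 5, and at 13.5 FPKM in N 3 against 9.24, 10.2, 9.44 and 8.61 in LMS 1, 3, 4 and 6. Lcp1, the actin-bundling plastin of leukocytes, was at 43.3 FPKM in N 1 and 31.1 in N 2 against 24.2 in LMS 2 and 31.0 in LMS 5. Over the limit N 2 thus lay close above the higher LMS library, while under it N 3 exceeded every LMS library by a wider margin. Against N 2 alone the difference over the limit was -0.25 for Ptpro, -0.18 for Lcp1, -0.15 for Eno1 and -0.02 for Zmiz1, which encodes a transcriptional coactivator.

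Nupr1, a stress-induced chromatin protein, was lower without leaning on N 1. It was at 1.05 FPKM in N 1, 1.10 in N 2 against 0.761 in LMS 2 and 0.562 in LMS 5, and at 20.3 FPKM in N 3 against 19.0, 10.5, 16.8 and 15.3 in LMS 1, 3, 4 and 6. Its differences were -0.45 and -0.42, and -0.47 against N 2 alone, but its estimate was 0.33 with log2 Cd3e as a covariate in place of the stratum. Acat3, an acetyl-CoA acetyltransferase, likewise differed by -0.52 and -0.46 and by -0.68 against N 2. Zmiz1 at -0.39 was the last of the 12 and Runx1 at -0.38 the first beyond. The further names among the 12 were Rreb1, Usp40, Cacnb3, B430218F22Rik and 2610528A11Rik.

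Glycolysis genes were among the lists with many lower genes. Of 19 tested, 15 were lower in both strata and 9 without overlap, beside 31.4% and 7.97% of all genes, and none was higher in both. Ldha, the lactate dehydrogenase that ends anaerobic glycolysis, was at 109.6 FPKM in N 1, 102 in N 2, 89.0 in LMS 2 and 90.6 in LMS 5. It was at 1004 FPKM in N 3 and at 905, 920.2, 887 and 891 in LMS 1, 3, 4 and 6. The groups were apart in both strata, with differences of -0.24 and -0.16 and a stratified estimate of -0.20 (SE 0.05, adjusted p = 0.687 in limma).

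Pgk1, a kinase that makes ATP in glycolysis, was at 51.0 and 48.4 FPKM in N 1 and N 2 and at 42.1 and 46.8 in LMS 2 and 5. It was at 870.4 FPKM in N 3 and at 803, 800.0, 762 and 766 in LMS 1, 3, 4 and 6. The glucose transporter gene Slc2a1 differed by -0.31 and -0.19. Eno1, the enolase, was at 665 FPKM in N 3, 280.1 in LMS 1 and 588 to 607 in LMS 3, 4 and 6, and its difference of -0.43 is a mean over libraries of which LMS 1 stood apart. With log2 Cd3e as a covariate in place of the stratum the estimates changed sign, to 0.48 for Ldha, 0.69 for Pgk1, 0.19 for Slc2a1 and 0.12 for Eno1, none of them called.

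The median of the glycolysis list was -0.24 over the limit and -0.13 under it. Without N 1 it was -0.12 and -0.13, and 12 of the 19 were lower without overlap, beside 15.8% of all genes. This count cannot fall when a library is left out. After scaling by the median of ratios 12 were lower in both strata and 8 without overlap, beside 4.36% of all genes.

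The promoters of Pgk1 and Slc2a1 are shown for this list, since both have 1 start site in RefSeq. Capitals mark ACGTG, the core of the hypoxia response element, on either strand. Pgk1 is chrX:106186850-106187099 and Slc2a1 chr4:119108495-119108744 of GRCm38.p6, both on the plus strand.
Pgk1: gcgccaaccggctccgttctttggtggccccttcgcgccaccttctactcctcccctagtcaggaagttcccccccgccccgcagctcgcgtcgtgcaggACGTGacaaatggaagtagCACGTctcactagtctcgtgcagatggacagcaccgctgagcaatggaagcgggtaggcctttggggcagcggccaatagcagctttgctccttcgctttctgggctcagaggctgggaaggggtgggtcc
Slc2a1: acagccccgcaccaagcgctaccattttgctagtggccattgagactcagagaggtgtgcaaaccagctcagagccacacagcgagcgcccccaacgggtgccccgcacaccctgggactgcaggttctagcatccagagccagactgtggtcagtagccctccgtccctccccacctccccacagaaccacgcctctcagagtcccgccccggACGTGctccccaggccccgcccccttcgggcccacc

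Of the 19 glycolysis genes 18 had windows, and 13 of their 26 windows (50.0%) held ACGTG, against 16.6% of all windows. The factor that binds it was not measured, and its gene Hif1a differed by -0.10 over the limit and 0.02 under it.

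Of 21 lysosomal genes tested, 12 were lower in both strata and 10 without overlap, beside 31.4% and 7.97% of all genes, and none was higher in both, with medians of -0.14 and -0.10. Ctsa, the protective protein of lysosomal glycosidases, was at 39.9 FPKM in N 1, 34.7 in N 2 against 31.9 in LMS 2 and 28.7 in LMS 5, and at 170.2 FPKM in N 3 against 146, 153, 148 and 144 in LMS 1, 3, 4 and 6. The protease gene Lgmn differed by -0.29 and -0.15, and by -0.06 over the limit against N 2 alone. With log2 Cd3e as a covariate the estimates were 0.21 for Ctsa and 0.20 for Lgmn. After scaling by the median of ratios 5 of the 21 were lower without overlap, beside 4.36% of all genes, and without N 1 they were 13, beside 15.8%.

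Cholesterol synthesis held 15 of 20 genes lower in both strata and 8 without overlap, beside 31.4% and 7.97% of all genes, with medians of -0.26 and -0.10. Msmo1, a sterol methyl oxidase, was at 9.37 FPKM in N 1, 6.95 in N 2 against 6.51 in LMS 2 and 4.99 in LMS 5, and at 68.6 FPKM in N 3 against 61.1, 60.2, 57.6 and 58.0 in LMS 1, 3, 4 and 6. Sqle, the squalene epoxidase, differed by -0.22 and -0.11. With log2 Cd3e as a covariate the estimates were 0.31 for Msmo1 and 0.40 for Sqle. The median over the limit was -0.06 without N 1, where 9 genes were lower without overlap beside 15.8% of all genes. After scaling by the median of ratios they were 5, beside 4.36%.

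Among p53 targets 10 of 20 genes were lower in both strata and 5 without overlap, beside 31.4% and 7.97% of all genes, while Gadd45a was among the 2 higher without overlap. Cdkn1a, the cell cycle inhibitor p21, was at 118 FPKM in N 3 and at 106 to 114 FPKM in the LMS libraries under the limit, and at 1.79 and 1.54 FPKM in N 1 and N 2 against 1.34 and 1.30 in LMS 2 and 5. With log2 Cd3e as a covariate its estimate was 1.02. After scaling by the median of ratios 2 of the 20 were lower without overlap, beside 4.36% of all genes, and without N 1 they were 6, beside 15.8%.

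Of 26 Toll-like receptor genes and adaptors 13 were lower in both strata and 4 without overlap, beside 31.4% and 7.97% of all genes. Without N 1 they were 6 without overlap, beside 15.8%, and after scaling by the median of ratios 3, beside 4.36%. Ticam1, the adaptor TRIF, differed by -0.46 and -0.24, Ly96, the partner of TLR4, by -0.23 and -0.31, and the ligase Traf6 by -0.16 and -0.15. The Fc receptor gamma chain gene Fcer1g differed by -0.78 and -0.19. Over the limit the difference against N 2 alone was -0.36 for Fcer1g, -0.24 for Ticam1, -0.08 for Ly96 and -0.08 for Traf6.

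Macrophage markers did not move one way under the limit, where their median was 0.61. Without overlap, 15 of the 22 were higher in LMS and 4 lower, beside 27.6% and 31.4% of all genes. Their sum is mostly Lyz2, which was at 2888 FPKM in N 3 and at 2743, 2654, 2661 and 2589 FPKM in LMS 1, 3, 4 and 6. The 22 summed to 3409 FPKM in N 3 and to 3269, 3181, 3188 and 3113 FPKM in LMS 1, 3, 4 and 6, and the 4 Y-linked genes to 67.3 FPKM in N 3 and 59.0 to 64.6 FPKM in LMS. N 2 exceeded N 3 in 181 of the 912 lower genes (19.8%), beside 48.9% of all genes. The level of N 3 helped to select the 912, so this share is partly set by the selection. The part of macrophage and Y-linked transcripts in the lower genes was not tested.

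**Figure D4:**
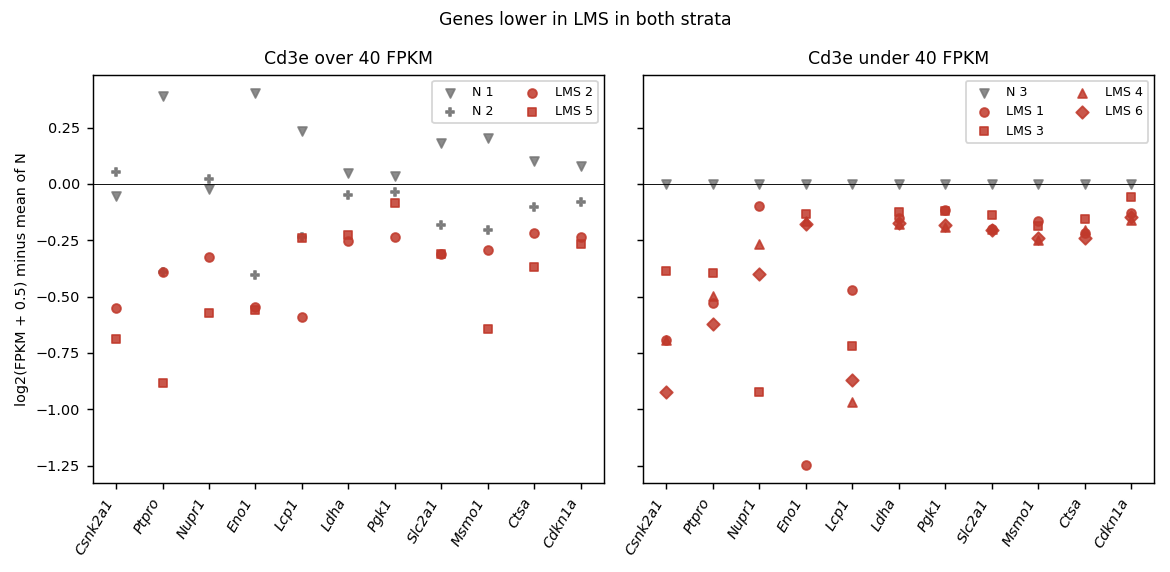
log2(FPKM + 0.5) of 11 genes lower in LMS in both strata, less the mean of the N libraries of the stratum, for the stratum over 40 FPKM of Cd3e (left) and under it (right), with N in grey and LMS in red. For Csnk2a1 both LMS libraries at left lie well below both N libraries, while for Ptpro and Eno1 N 2 lies at or near the level of LMS 2, and at right LMS 1 is the low point of Eno1.

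The antibody target itself was higher in both strata. Ctla4 was at 4.00 FPKM in N 1, 4.48 in N 2 against 5.11 in LMS 2 and 5.30 in LMS 5, and at 0.294 FPKM in N 3 against 0.958, 1.00, 1.40 and 1.93 in LMS 1, 3, 4 and 6. The groups did not overlap in either stratum, and the differences were 0.27 and 1.17 (stratified estimate 0.67, SE 0.23, adjusted p = 0.687 in limma). Against N 2 alone the difference over the limit was 0.19. Under the limit Cd3e differed by 1.78 and had the same order over these libraries.

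Cd28 was at 14.7, 14.1, 14.1 and 14.98 FPKM in N 1, N 2, LMS 2 and LMS 5, which differ by less than the spread within a group, and at 1.34 FPKM in N 3 against 1.53, 1.53, 2.09 and 2.37 in LMS. Cd86 had opposite signs, with differences of -0.28 over the limit and 1.48 under it, and so had Cd80, with -0.27 and 0.20. The inhibitory receptor gene Vsir was lower without overlap, by -0.28 and -0.10, and by -0.11 over the limit against N 2 alone. Of the 17 costimulation genes tested, 4 were higher and 2 lower in both strata, beside 15.3% and 31.4% of all genes. Another 11 were lower over the limit and higher under it, beside 3561 of all 11436 genes.

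Of the cytokine genes, Ifng had opposite signs in the strata. It was at 3.25 and 3.28 FPKM in N 1 and N 2 and at 2.44 and 2.45 FPKM in LMS 2 and 5, and was listed at 0 in N 3 against 0.183 to 0.783 FPKM in LMS 1, 3, 4 and 6. Tgfb1 differed by -0.27 and 0.06. Il4 and Il2 did not reach the level tested and stood below 1 FPKM in all 9 libraries.

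Lists of other cell types mostly had opposite signs in the strata. Of 19 T cell genes 18 and of 17 B cell genes 16 were lower in LMS over the limit and higher under it. So were 11 of 13 NK cell genes and 10 of 11 genes of MHC class II presentation, beside 3561 of all 11436 genes. The medians were -0.44 and 1.85 for T cells, -0.21 and 2.39 for B cells and -0.49 and 1.29 for NK cells. Without N 1 the T cell median over the limit was -0.11 and the B cell median -0.03.

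Cell cycle genes ran the opposite way, with 26 of 28 higher over the limit and lower under it, beside 2521 of all 11436 genes. Their medians were 1.12 and -0.09. Without N 1 their median over the limit was -0.09, and 22 of the 28 were lower in both strata, beside 3910 of all genes. All 13 genes of the mitochondrial genome were lower over the limit and higher under it, beside 3561 of all genes. Their medians were -0.10 and 0.19.

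**Figure D5:**
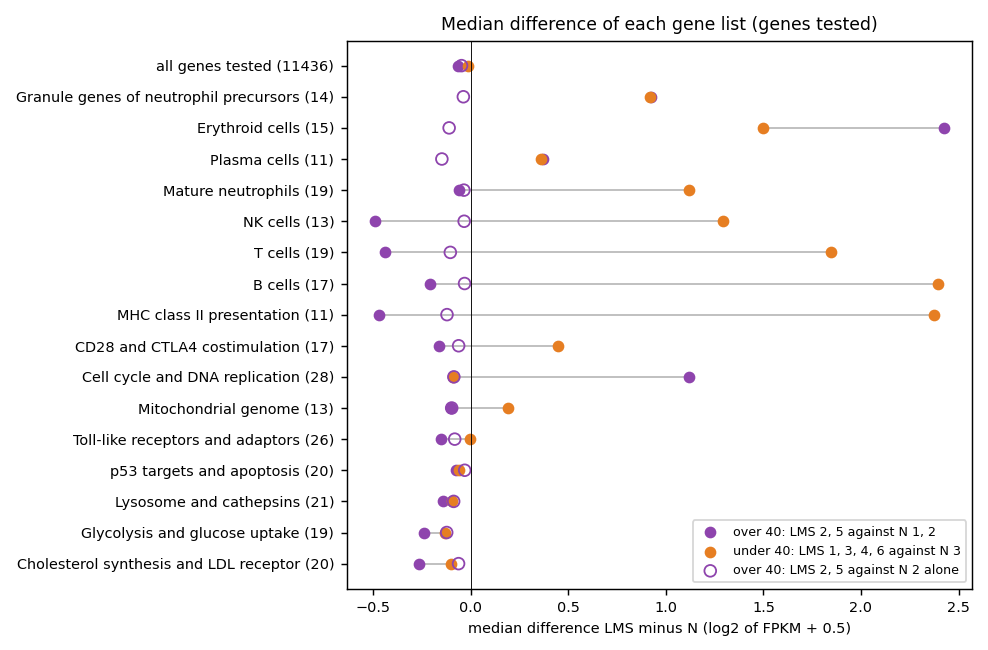
Median difference between LMS and N (log2 of FPKM + 0.5) over the tested genes of 16 lists and over all genes, with the number tested in brackets, for the stratum over 40 FPKM of Cd3e (purple), the same with N 2 as the only untreated library (open purple) and the stratum under it (orange). Granule, erythroid and plasma cell medians are above 0 in both strata with N 1 and below 0 over the limit without it. Glycolysis, lysosome and cholesterol medians are below 0 in every case, as are those of Toll-like receptors, p53 targets and all genes.

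Whether the difference itself changed between the strata was tested by the interaction of stratum and group. limma called 2 of 11436 genes (0.0175%), with 1333 at an unadjusted p under 0.05. Ak4, an adenylate kinase of mitochondria on chromosome 4 from 101419277 to 101466995 of mm10, was at 26.2 FPKM in N 3 and at 6.14, 6.48, 5.91 and 6.62 in LMS 1, 3, 4 and 6. Over the limit it was at 0.01 FPKM or less in all 4 libraries, which fixes the difference there near 0. The interaction was 1.97 (SE 0.14, adjusted p = 0.0296 in limma), and it rests on N 3 alone among untreated libraries.

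Short of the threshold were Nr2c2, a nuclear receptor at 2.07 FPKM in N 3 and 8.62 to 9.82 FPKM in the LMS libraries under the limit, and 1110008P14Rik, both with an adjusted p of 0.073 in limma. The number of called interactions ranged from 0 without LMS 2, 3, 4, 5 or 6 to 196 without LMS 1 and 3846 without N 2, and was 4 without N 1.

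A gene called only when a library was left out or down-weighted was Psmc2, an ATPase of the proteasome. It was at 9.55 FPKM in N 1, 33.3 in N 2 against 11.3 in LMS 2 and 12.4 in LMS 5, and at 37.7 FPKM in N 3 against 14.3 to 14.6 FPKM in LMS 1, 3, 4 and 6. Without N 1 its stratified difference was -1.40 (adjusted p = 5.7e-05 in limma), and with weights per library -1.38 (adjusted p = 0.0441), where N 1 had the lowest weight. N 1 lay below every LMS library over the limit, so its groups overlapped there with all 9 libraries. It was named after its values were seen.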

How the data were processed

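The study names splenocytes as the source of the RNA, and the labels give spleen as the tissue of all 18 libraries. Markers of several libraries went against their labels, as given above. The authors deposited 1 table per library with FPKM values for reference and newly assembled genes, a coverage column and a column headed TPM. The deposited FPKM were used as they stand. The deposited coverage served only to estimate library size, 5.21 to 7.92 aligned gigabases over the 9 libraries. The column headed TPM was treated as a score of unknown scaling in the deposited files and not used. The submitters' processing notes name mm10 and GATK 4.2, while aligner and counting tool are given in none of the sources used here. Depth in reads is unknown, so no counting intervals are given.

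Of 47729 reference genes 21620 are protein-coding in the annotation, and the 11436 of these whose mean over 18 libraries reached 0.5 FPKM were tested. limma 3.58.1 in R 4.3.3 was fitted to log2(FPKM + 0.5) with stratum and group (6 residual degrees of freedom), with their interaction, and without the stratum, and p-values were two-sided and adjusted by Benjamini-Hochberg over all genes tested. On this scale the change of low genes is understated. N 3, alone in its group and stratum, is assumed to vary like the other libraries. The fits were run on simulated data with known changes. A minimum recovery was required only at a spread far below the observed one, and none at the observed spread. Named were the 12 highest and 12 lowest genes without overlap in both strata by the smaller difference, up to 4 such genes per list and the list members described, the antibody targets and assayed cytokines, up to 4 genes of the interaction, and library markers. A few genes that this rule names are not reported here. Members and lists were chosen with earlier results of these data known. Alternatives covered the pseudocount, filter, scaling, weights, covariates, a replicate block and single libraries left out.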

Additional observations from a re-analysis of the deposited data

Results flagged for a closer look

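For each gene of the text the 6 LMS libraries and the 4 of them under the Cd3e limit were examined, 122 groups in all. In 2 groups a library was flagged as apart from the others, where chance alone gives about 1 in 20 for separate groups of like libraries. Here the groups of 6 span both strata and contain the groups of 4, so that rate does not carry over. Eno1 was at 280.1 FPKM in LMS 1 against 588 to 607 FPKM in LMS 3, 4 and 6. Slc2a1 was at 41.34 FPKM in LMS 3 against 39.5 to 39.7 FPKM in LMS 1, 4 and 6.

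The interaction of stratum and group was called for Ak4, at 1.97 on the log2 scale (adjusted p = 0.0296 in limma). Over the limit Ak4 stood at 0.002 to 0.007 FPKM, which fixes the difference there near 0 (-0.006). The interaction thus mirrors the difference of -1.98 under the limit and cannot tell whether an effect differs between the strata. N 3 is the only untreated library under the limit.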

How the results depend on the processing

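The 9 libraries hold 1 untreated library under the Cd3e limit and 2 over it, so each untreated library weighs heavily, and low FPKM depend on the pseudocount. The cause of the changes below was not tested. The 0 calls of the stratified fit became 1 lower gene without a filter on low values (Fam92b) and with weights per library (Psmc2), and 0 to 1 when a library was left out, with 1 lower (Psmc2) without N 1 and 1 higher without N 3. The 27 genes at least 1 higher in both strata became 78 with a pseudocount of 0.1, 14 with a pseudocount of 1 and 17 after quantile normalization, and 0 (without N 1) to 41 (without N 2) with a library left out, and the 0 genes at least 1 lower became 0 to 2. The 1747 genes higher in both strata became 882 with a filter of 5 FPKM and 3461 with none. The 231 higher genes without overlap became 76 with that filter, 375 with none and 379 with the median of ratios, and 252 to 873 with a library left out. The 912 lower ones became 499 with the median of ratios and 1003 to 1804 with a library left out. Counts without overlap can only stay or rise when a library is left out. The 2 interactions became 1 with a pseudocount of 1 and 0 to 3846 with a library left out. With log2 Cd3e as covariate in place of the stratum, differences changed sign for Eno1 (0.12), Nupr1 (0.33), Ldha (0.48), Pgk1 (0.69), Slc2a1 (0.19), Msmo1 (0.31), Sqle (0.40), Ctsa (0.21), Lgmn (0.20), Cdkn1a (1.02), Cd28 (-0.40), Cd86 (-0.030), Ifng (-0.14) and Cd3e (-0.16). Without any stratum they changed sign for Dnah8 (-0.10), Alas2 (-0.26), Gadd45a (-0.26), Ptpro (0.19), Eno1 (0.48), Nupr1 (0.81), 2610528A11Rik (0.19), Ldha (0.90), Pgk1 (1.22), Slc2a1 (0.47), Msmo1 (0.71), Sqle (0.75), Ctsa (0.49), Lgmn (0.46), Cdkn1a (1.76), Fcer1g (0.036), Cd28 (-0.76), Cd86 (-0.41), Ifng (-0.42), Ak4 (0.59) and Cd3e (-0.74). With weights per library Elane was at -0.027 and Ifng at -0.048. With a library left out, Car2 ranged from -0.0145 to 2.86, Tfrc from -0.018 to 1.46, Cd80 from -0.27 to 0.0575, Cd86 from -0.28 to 0.77, Ifng from -0.35 to 0.38, Nr2c2 from -0.27 to 1.02, 1110008P14Rik from -0.16 to 0.69 and Cd3e from -0.20 to 0.93.

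Deviations from the group means correlated across genes at -0.64 for N 1 and LMS 1, 0.89 for N 2 and LMS 2 and 0.91 for N 3 and LMS 3. Libraries of unlike number in the same stratum correlated alike, at 0.89 for N 2 and LMS 5 and 0.93 for N 3 and LMS 1. The values were positive within a stratum and negative between the strata, so they cannot tell whether replicate numbers pair the libraries. With a replicate block beside the stratum limma called 0 genes, and Car2 (-0.018), Tfrc (-0.011), Cd80 (0.056) and Tgfb1 (0.0013) changed sign.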
